A study of Mus musculus with 20 samples.

Results

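Subiculum pyramidal cells that send axons to the target labelled NA were compared with those that send axons to the target labelled RSC, in 3 bulk RNA-seq libraries each. These 6 libraries were taken by their population label from the 12 bulk libraries of the series, whose other 6 come from cells labelled PFC and VHN and enter here as a shared estimate of spread and for a single test of a difference. NA and RSC are the customary short forms of nucleus accumbens and retrosplenial cortex, although the labels do not spell them out. Fluorescent mouse neurons were picked by hand from microdissected slices, per the labels' protocols, and the series design calls the 3 libraries of a population biological replicates. Strain, age, sex, the tracer and the number of cells or animals behind a library are not given in the sources used here, and no treatment or genotype is named for either group. A further 384 single subiculum cells, with no label of their target, were read for the same genes.

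The subiculum is the main output station of the hippocampus. Its pyramidal cells use glutamate, and cells at different positions in it reach different targets, with the accumbens served mainly by cells nearer CA1 and the retrosplenial cortex by cells further away. What such a cell sends and receives depends on its ion channels, its receptors, its transmitter release proteins, and the adhesion and guidance molecules on its axon.

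The libraries of the populations differed in named genes of many kinds. NA cells held far more of the receptor tyrosine kinase Kit, the calcium buffer Calb1, the serotonin receptor Htr2c, the calcium channel subunit Cacna2d1 and the complexin Cplx2. RSC cells held far more of fibronectin (Fn1), neurotensin (Nts), the calcium sensor of transmitter release Syt2, the pseudokinase Trib2 and the relaxin receptor Rxfp1. The transporter Slc17a6, which loads glutamate into vesicles, was also higher in RSC, by a smaller margin. Levels are CPM, counts per 1e+06 gene fragments after TMM scaling, and each edgeR adjusted p is a Benjamini-Hochberg value over the 13916 genes tested, called at 0.05.

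The upstream sequences of 4 of these genes are shown because they stand for both sides and for different types of promoter. Each run covers 250 to 76 bases before the RefSeq start (GRCm38.p6, 5′ to 3′ on the gene's strand), and capitals mark the motifs searched on both strands.
Kit, higher in NA, chr5:75574737-75574911, plus strand: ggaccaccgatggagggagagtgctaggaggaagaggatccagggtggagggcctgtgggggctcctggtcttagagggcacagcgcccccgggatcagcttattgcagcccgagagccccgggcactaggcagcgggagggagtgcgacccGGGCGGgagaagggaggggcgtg
Cacna2d1, higher in NA, chr5:15934441-15934615, plus strand: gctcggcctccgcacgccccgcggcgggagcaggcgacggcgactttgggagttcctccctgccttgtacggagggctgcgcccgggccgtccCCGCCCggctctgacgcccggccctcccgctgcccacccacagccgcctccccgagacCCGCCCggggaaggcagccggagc
Nts, lower in NA, chr10:102490494-102490668, minus strand: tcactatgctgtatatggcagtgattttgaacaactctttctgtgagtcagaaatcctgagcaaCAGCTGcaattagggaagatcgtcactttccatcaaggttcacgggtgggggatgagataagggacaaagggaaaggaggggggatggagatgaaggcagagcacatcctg
Trib2, lower in NA, chr12:15816861-15817035, minus strand: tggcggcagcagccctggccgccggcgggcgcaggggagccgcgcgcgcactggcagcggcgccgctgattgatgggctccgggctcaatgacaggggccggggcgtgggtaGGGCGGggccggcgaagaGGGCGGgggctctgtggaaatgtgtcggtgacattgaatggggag
The motifs were the GC box GGGCGG, the TATA box TATAAA, the cyclic AMP element TGACGTCA and the E-boxes CAGCTG and CACGTG. The Kit stretch holds 1 GC box, those of Cacna2d1 and Trib2 hold 2 each, and that of Nts holds 1 CAGCTG and no GC box. In the full 250 bases, CG pairs numbered 17 for Kit (the first of 2 listed promoters), 36 for Cacna2d1, 34 for Trib2 and 2 for Nts.

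Across the 250 bases before all 32851 promoters in the RefSeq table, 32.7% held a GC box. The share was 56.6% for the 13063 promoters of genes tested, 55.4% for the 462 promoters of genes called higher in NA and 52.5% for the 305 of genes called lower. CAGCTG stood in 13.0% of all promoters, 11.99% of those tested, 18.2% of those higher and 16.7% of those lower. TATAAA stood in 12.4%, 6.27%, 4.98% and 6.56% in the same order, CACGTG in 6.02%, 8.22%, 6.28% and 6.89%, and TGACGTCA in 1.55%, 2.53%, 1.95% and 3.28%. These are shares of letter matches, and some genes have more than 1 promoter in the table.

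Depth ran from 11325173 to 20904126 gene fragments in the 6 libraries, lowest in NA replicate 2. That library also stood apart. Across the genes tested its Spearman correlation was 0.855 and 0.864 with the other NA libraries, which correlated at 0.933 with each other, and 0.814 to 0.821 with RSC libraries. RSC libraries correlated at 0.922 to 0.936 among themselves and at 0.872 to 0.900 with NA replicates 1 and 3. Correlations are across genes, which are not independent.

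Of the 13916 genes tested, 811 were called (5.83%), 483 higher in NA (3.47%) and 328 lower in NA (2.36%). The difference was at least 2-fold on the log2 scale (an absolute log2 fold change of 1 or more) for 404 and 268 of them. The median log2 fold change of all genes tested was 0.02. Libraries of both groups did not overlap for 1719 genes higher in NA (12.4%) and 1772 lower (12.7%), and these include 478 of the 483 and all 328 calls. Fragments were absent from all 3 RSC libraries for 25 of the higher genes and from all 3 NA libraries for 12 of the lower ones. In bulk samples, fewer cells with a transcript and less of it per cell cannot be told apart.

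The number of calls depended on each library. It was 637 without NA replicate 1, 656 without NA replicate 2 and 777 without NA replicate 3. It was 425, 387 and 472 without RSC replicates 1, 2 and 3. Of the 115 called genes chosen by the naming rule, 80 stayed called without each single library, and for those of the other 35 that are described here the adjusted p is given without the libraries that ended their call.

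**Figure D1:**
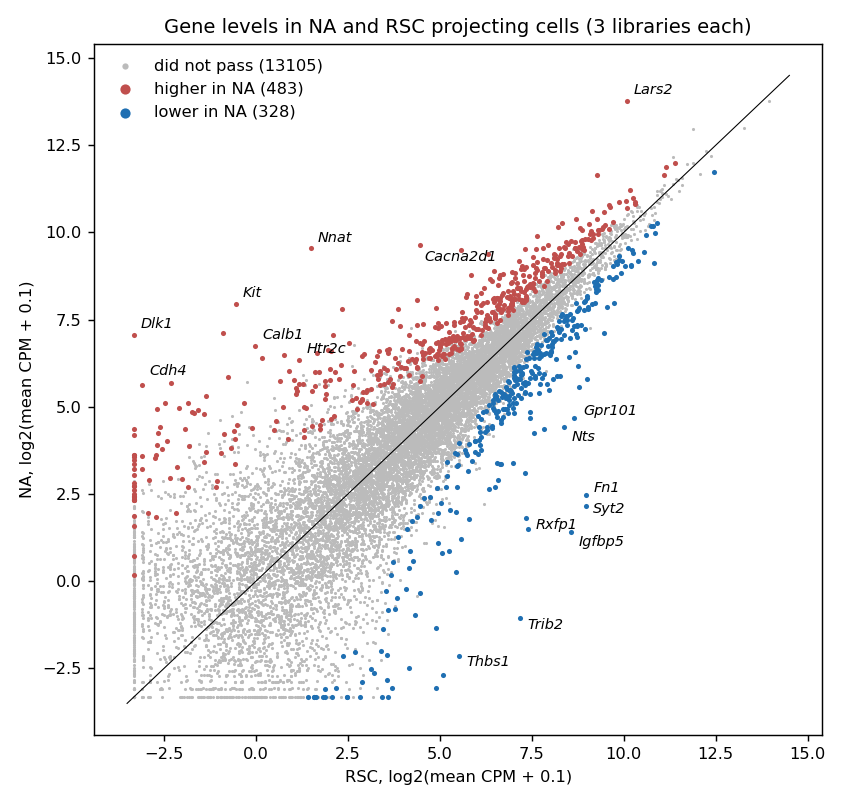
Mean level of each of the 13916 genes tested in RSC (horizontal) and NA libraries (vertical), as log2(mean CPM + 0.1), n = 3 libraries each. Red points are the 483 genes called higher in NA, blue points the 328 called lower and grey points the genes that did not pass; the line marks equal levels.

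The largest difference on the NA side was Dlk1, a membrane-bound relative of Notch ligands, at 294, 15.3 and 88.8 CPM in NA against 0, 0 and 0 CPM in RSC (log2 fold change 14.04, SE 2.46, edgeR adjusted p = 0.00337). Every NA library held it and no RSC library did, so the mean was at least 2485-fold higher, counted against a floor of 3 fragments over the RSC group. Its level still ranged widely among NA libraries. Cdh4, the cadherin R-cadherin of cell adhesion, was at 65.2, 51.6 and 30.04 CPM in NA against 0, 0 and 0.0483 CPM in RSC (log2 fold change 10.91, SE 1.69, edgeR adjusted p = 0.000986). A single RSC fragment was seen, and the fragments of each group, summed and divided by the summed effective library sizes, differed by a ratio of 2652 (counting interval 475 to 1.05e+05). Zfhx4, a zinc finger homeobox transcription factor, was at 12.9, 7.395 and 12.9 CPM in NA against 0, 0 and 0 CPM in RSC (log2 fold change 10.46, SE 1.52, edgeR adjusted p = 0.000953), at least 208-fold higher.

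Other genes of this size were carried by NA replicate 2. Sox9, a transcription factor best known from glia, was at 0.124, 60.8 and 0.887 CPM in NA and 0 in RSC (log2 fold change 11.35, SE 3.14, edgeR adjusted p = 0.0469), and the adjusted p was 0.273, 0.132, 0.131 and 0.128 without NA replicate 2, RSC replicate 1, RSC replicate 2 and RSC replicate 3 in turn. Mei4, a meiosis gene, was at 5.41, 147 and 0.521 CPM in NA against 0, 0.1103 and 0.193 CPM in RSC (log2 fold change 8.83, SE 1.87, edgeR adjusted p = 0.0095), and the adjusted p was 0.0965 and 0.0505 without NA replicate 2 and RSC replicate 2 in turn. Replicate 2 held most of the signal of both. Plekha2, a phosphoinositide-binding adaptor, was at 2.55, 49.7 and 2.45 CPM in NA and 0 in RSC (log2 fold change 11.17, SE 2.71, edgeR adjusted p = 0.0245), and the adjusted p was 0.0698, 0.0823, 0.0807 and 0.0743 without NA replicate 2, RSC replicate 1, RSC replicate 2 and RSC replicate 3 in turn. Zbbx was at 0.249, 30.9 and 4.54 CPM in NA against 0, 0 and 0.0483 CPM in RSC (log2 fold change 8.88, SE 2.34, edgeR adjusted p = 0.0332), and the adjusted p was 0.121, 0.123, 0.126 and 0.093 without NA replicate 2, RSC replicate 1, RSC replicate 2 and RSC replicate 3 in turn. These genes had the same high library. The sialyltransferase St6gal1 (5.96, 24.4 and 6.47 CPM), the urate transporter Slc2a9 (0.435, 29.3 and 5.11 CPM) and the predicted gene Gm17035 (2.05, 28.9 and 5.63 CPM) were likewise highest there and had no RSC fragment. Their edgeR adjusted p was 0.00291, 0.0113 and 0.0106, and none lost its call without a single library. The matrix proteoglycan Podn was at 6.96, 66.6 and 18.98 CPM in NA against 0.115, 0 and 0.0483 CPM in RSC (log2 fold change 8.96, SE 1.58, edgeR adjusted p = 0.00258). Piga, needed for GPI anchors, went the other way within the group, at 15.2, 0.322 and 15.3 CPM in NA and 0 in RSC (log2 fold change 10.35, SE 1.798, edgeR adjusted p = 0.0032).

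On the RSC side several of the largest differences were seen in every library. Trib2, a pseudokinase that regulates protein degradation, was at 140.3, 156 and 137 CPM in RSC against 0.249, 0.214 and 0.678 CPM in NA (log2 fold change −8.45, SE 1.02, edgeR adjusted p = 0.000274), 380.1-fold. Syt2, a fast calcium sensor of transmitter release, was at 691, 496 and 318 CPM in RSC against 2.796, 3.97 and 6.31 CPM in NA (log2 fold change −6.83, SE 0.756, edgeR adjusted p = 0.000137), 115-fold. Igfbp5, which binds insulin-like growth factors, was at 287, 249 and 595 CPM in RSC against 3.29, 4.29 and 0.156 CPM in NA (log2 fold change −7.26, SE 0.948, edgeR adjusted p = 0.000374), 146-fold. In all 3 genes the lowest RSC library was more than 10-fold above the highest NA library. Fn1, the matrix protein fibronectin, was at 567, 572 and 381 CPM in RSC against 0.0621, 1.82 and 14.4 CPM in NA (log2 fold change −6.49, SE 0.914, edgeR adjusted p = 0.00056), 93.1-fold. NA replicate 3 held nearly all of its NA signal. Thbs1, the matrix protein thrombospondin, was at 31.8, 42.7 and 63.9 CPM in RSC against 0.0621, 0.322 and 0 CPM in NA (log2 fold change −8.71, SE 1.21, edgeR adjusted p = 0.000525), 361-fold. No NA library was above the level of about 3 fragments for Thbs1, so this ratio is imprecise. Bmper, a secreted regulator of BMP signals, was at 36.1, 15.1 and 37.5 CPM in RSC against 0.186, 0.643 and 0.0521 CPM in NA (log2 fold change −6.74, SE 1.16, edgeR adjusted p = 0.0022), 100.5-fold.

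Lower-level RSC genes of the same size were Whrn, Mctp2, Tnnt2, Lipm, Slc35d3 and Skint1. Whrn, a scaffold protein of hair cells and neurons, was at 53.4, 17.4 and 31.2 CPM in RSC against 0.0621, 0.107 and 0 CPM in NA (log2 fold change −9.26, SE 1.34, edgeR adjusted p = 0.000714), and the RSC level from summed fragments was higher by a ratio of 749 (counting interval 207 to 6188). Mctp2, a membrane protein with calcium-binding C2 domains, was at 14.9, 14.999 and 23.4 CPM in RSC against 0.124, 0.107 and 0 CPM in NA (log2 fold change −7.804, SE 1.23, edgeR adjusted p = 0.00181), higher from summed fragments by a ratio of 268 (counting interval 91.6 to 1304). Both had 3 or fewer fragments in NA. Lipm, a lipase gene, was at 9.75, 6.45 and 22.9 CPM in RSC with 1 fragment in NA (log2 fold change −8.75, SE 1.41, edgeR adjusted p = 0.00193). Tnnt2, a troponin of heart muscle, was at 15.9, 15.1 and 3.96 CPM in RSC with 2 fragments in NA (log2 fold change −7.81, SE 1.62, edgeR adjusted p = 0.0101). No call among these was lost without a single library. Slc35d3, a nucleotide sugar transporter relative, was at 5.42, 21.9 and 8.75 CPM in RSC and 0 in NA (log2 fold change −10.58, SE 1.99, edgeR adjusted p = 0.00565), at least 179-fold higher. Skint1 was at 0.865, 13.7 and 17.7 CPM in RSC and 0 in NA (log2 fold change −10.42, SE 2.12, edgeR adjusted p = 0.0116), at least 159.97-fold higher, with RSC replicate 1 far below the other two. It belongs to a family of similar genes whose reads may be shared.

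**Figure D2:**
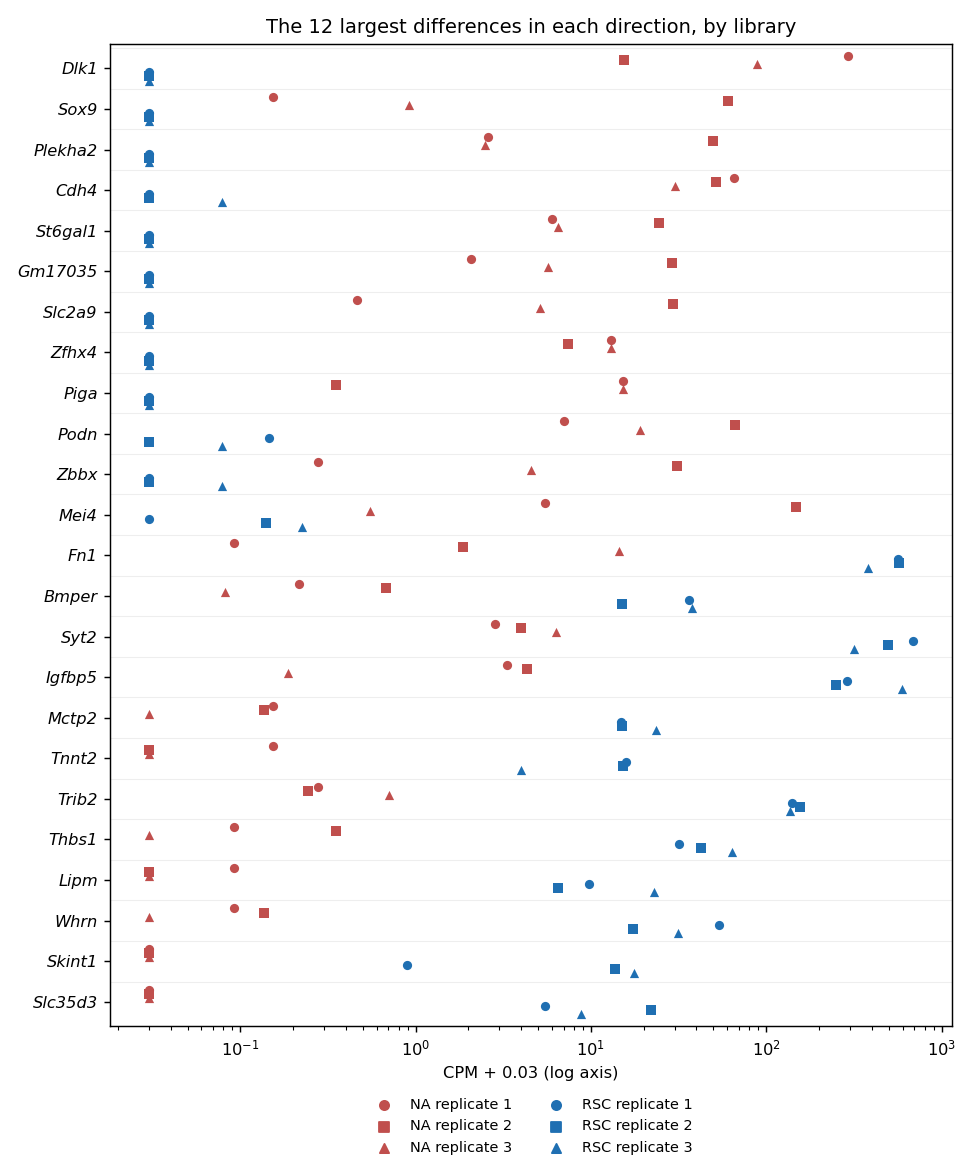
CPM + 0.03 on a log axis (horizontal) in the 3 NA (red) and 3 RSC libraries (blue) for the 24 genes with the largest log2 fold changes, 12 in each direction (circle, square and triangle for replicates 1, 2 and 3). No NA point overlaps an RSC point of the same gene, as the naming rule requires; several genes at the top have their highest point in NA replicate 2, the red square.

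For each gene list below, the shares to set beside its counts are those over all genes tested. These are 3.47% higher in NA, 2.36% lower and 5.83% in either direction. They hold for edgeR calls, while DESeq2 called 1671 of the 13916 genes tested. The share of all genes at an unadjusted p under 0.05 was not computed for NA against RSC. List counts at that threshold therefore have no background here. Growth factor receptors start kinase signals at the cell surface. Of 21 growth factor receptor and ligand genes tested, 2 were higher in NA and 1 lower. Kit, the receptor for stem cell factor (ENSMUSG00000005672), was at 186, 368 and 193 CPM in NA against 1.21, 0.0551 and 0.483 CPM in RSC (log2 fold change 8.74, SE 1.07, edgeR adjusted p = 0.000274), 427-fold. Met, the receptor for hepatocyte growth factor, was at 25.6, 46.8 and 10.4 CPM in NA against 0, 0.827 and 0 CPM in RSC (log2 fold change 6.61, SE 1.597, edgeR adjusted p = 0.0204), and the adjusted p was 0.0757 and 0.0674 without RSC replicate 1 and RSC replicate 3 in turn. The GDNF receptor Gfra1 was at 266, 215 and 248 CPM in RSC against 49.8, 23.8 and 78.1 CPM in NA (log2 fold change −2.26, SE 0.467, edgeR adjusted p = 0.00812). The list's median was −0.28, and its other 18 members lay between −5.06 and 2.36 without passing.

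Neuropeptides and secreted signals split between the populations. Of 31 genes tested, 4 were higher in NA and 3 lower, with a median of 0.21. Nts, the neuropeptide neurotensin (ENSMUSG00000019890), was at 402, 314 and 281 CPM in RSC against 25.4, 20.3 and 18.2 CPM in NA (log2 fold change −3.96, SE 0.388, edgeR adjusted p = 5.68e-05), 15.6-fold. Each RSC library was more than 10-fold above each NA library. Igfbp4, another binder of insulin-like growth factors, was at 211, 151 and 116 CPM in RSC against 13.9, 6.43 and 5.06 CPM in NA (log2 fold change −4.23, SE 0.631, edgeR adjusted p = 0.00081), 18.8-fold, beside Igfbp5 above. Nrg3, a neuregulin ligand of ERBB4, was at 282, 361 and 164 CPM in NA against 77.9, 85.4 and 106 CPM in RSC (log2 fold change 1.58, SE 0.293, edgeR adjusted p = 0.00366). The 3 further genes higher in NA had log2 fold changes of 4.53 to 7.04. Calls numbered 4 without RSC replicate 1 or RSC replicate 3.

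Among receptors for peptides and orphan receptors, 2 of 27 were higher in NA and 2 lower (median 0.43). Rxfp1, the relaxin receptor, was at 187, 138 and 182 CPM in RSC against 1.55, 0.322 and 6.36 CPM in NA (log2 fold change −5.88, SE 0.789, edgeR adjusted p = 0.000438), 61.6-fold. Gpr101, an orphan receptor, was at 472, 371 and 353 CPM in RSC against 19.6, 38.5 and 17.99 CPM in NA (log2 fold change −3.98, SE 0.698, edgeR adjusted p = 0.00251), 15.7-fold. The groups were far apart for both. Gpr12, an orphan receptor coupled to cyclic AMP, was at 8.51, 12.9 and 22.2 CPM in NA against 0.0577, 0.441 and 0.0483 CPM in RSC (log2 fold change 6.27, SE 1.05, edgeR adjusted p = 0.00191), 79.7-fold. Npy1r, a receptor for neuropeptide Y, was at 15.3, 27.8 and 16.9 CPM in NA against 1.38, 2.15 and 0.387 CPM in RSC (log2 fold change 3.93, SE 0.869, edgeR adjusted p = 0.012), and the adjusted p was 0.0516 and 0.0552 without RSC replicate 1 and RSC replicate 3 in turn.

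Receptors for monoamines, acetylcholine, adenosine and cannabinoids moved one way where they were called, with 7 of 31 higher in NA and 0 lower. That is 22.6% of the list, against 5.83% of all genes tested. At an unadjusted p under 0.05 there were 17 genes of the list, in either direction. DESeq2 called 13 of the list, against 1671 of all 13916 genes tested. Htr2c, a serotonin receptor coupled to phospholipase C, was at 119.9, 35.9 and 87.6 CPM in NA against 2.37, 1.71 and 2.37 CPM in RSC (log2 fold change 5.23, SE 0.615, edgeR adjusted p = 0.000227), 37.8-fold. Chrna7, the alpha-7 subunit of nicotinic receptors, was at 35.04, 56.9 and 19.9 CPM in NA against 3.81, 4.14 and 2.85 CPM in RSC (log2 fold change 3.37, SE 0.642, edgeR adjusted p = 0.00457), and Chrm1, the M1 muscarinic receptor, at 316, 368 and 326 CPM in NA against 137, 131 and 139.6 CPM in RSC (log2 fold change 1.31, SE 0.195, edgeR adjusted p = 0.00081). The M1 difference was small in size and even among libraries. Adra2a, an adrenergic receptor coupled to inhibitory G proteins, was at 20.01, 16.9 and 22.3 CPM in NA against 0.923, 0.0551 and 0.725 CPM in RSC (log2 fold change 5.100, SE 1.21, edgeR adjusted p = 0.0181), and the adjusted p was 0.0521, 0.0716 and 0.0613 without RSC replicate 1, RSC replicate 2 and RSC replicate 3 in turn. The other 3 called members had log2 fold changes of 0.73 to 7.63, and the list's median was 0.36. With 1 library left out, calls came to 3 without RSC replicate 2 and 4 without RSC replicate 1.

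Ionotropic glutamate receptors differed by subunit. Of 18 tested, 3 were higher in NA and 1 lower (median 0.38). Gria1, the AMPA receptor subunit GluA1, was at 1726, 1442 and 1490.4 CPM in RSC against 988, 950.03 and 966 CPM in NA (log2 fold change −0.68, SE 0.149, edgeR adjusted p = 0.0112), and the adjusted p was 0.0878 without RSC replicate 1. Grin2b, an NMDA receptor subunit, was at 913, 1366 and 929 CPM in NA against 657, 585 and 664 CPM in RSC (log2 fold change 0.75, SE 0.162, edgeR adjusted p = 0.0103), and the adjusted p was 0.0629 without RSC replicate 2. The kainate receptor subunit Grik2 was at 255, 277 and 206 CPM in NA against 99.6, 136 and 130.02 CPM in RSC (log2 fold change 1.01, SE 0.212, edgeR adjusted p = 0.00876), and the adjusted p was 0.0501 without RSC replicate 1. All 3 differences were close to 2-fold or less. The count of calls was 1 without RSC replicate 1 and 2 without RSC replicate 2. Of 7 metabotropic receptors, Grm3 alone was called, higher in NA at 44.3, 5.36 and 17.1 CPM in NA against 0.115, 0 and 1.69 CPM in RSC (log2 fold change 5.17, SE 1.43, edgeR adjusted p = 0.0423). For this gene the adjusted p was 0.113, 0.0563, 0.146 and 0.12 without NA replicate 1, NA replicate 3, RSC replicate 1 and RSC replicate 2 in turn.

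No GABA or glycine receptor gene was called among 17 tested (edgeR), where 5 had an unadjusted p under 0.05 and DESeq2 also called 0. Their log2 fold changes ran from −1.18 to 2.34, with a median of 0.26. In smaller sets of libraries, calls numbered 1 without NA replicate 3 or RSC replicate 3.

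Of the vesicular glutamate transporters, 1 was called. Slc17a6 (VGLUT2) was at 486, 537 and 349 CPM in RSC against 159, 157 and 174 CPM in NA (log2 fold change −1.48, SE 0.278, edgeR adjusted p = 0.00404), 2.797-fold. Slc17a7 (VGLUT1), the main hippocampal form, was at 844, 929 and 718 CPM in NA against 609, 609 and 571 CPM in RSC and did not pass (log2 fold change 0.48, SE 0.146, edgeR adjusted p = 0.0645), although its libraries did not overlap. On the authors' FPKM scale, which allows genes to be compared per length, the mean level of Slc17a7 was 276 in NA and 197 in RSC, and that of Slc17a6 was 36.9 and 103. Slc17a7 was thus the more abundant form in both populations. The other 9 of 11 transporter genes tested did not pass either.

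Calcium channel genes set calcium entry during firing and at release sites. Of 20 tested, 5 were higher in NA and 2 lower, with a median of 0.82 against 0.02 over all genes tested. Cacna2d1, an auxiliary subunit that brings channels to the membrane and binds gabapentin, was at 399, 557 and 461 CPM in NA against 73.5, 77.04 and 115 CPM in RSC (log2 fold change 2.42, SE 0.247, edgeR adjusted p = 5.68e-05), 5.34-fold. Cacna1e, the pore of R-type channels, was at 1279.9, 1237 and 1474 CPM in NA against 509.5, 303 and 426 CPM in RSC (log2 fold change 1.69, SE 0.216, edgeR adjusted p = 0.000367), 3.22-fold. Each NA library was well above each RSC library for both. Cacna1b, the pore of N-type channels, was at 169.9, 1009.7 and 159 CPM in NA against 101, 109 and 104 CPM in RSC (log2 fold change 2.09, SE 0.5304, edgeR adjusted p = 0.0271), with the excess in NA replicate 2, and the adjusted p was 0.243, 0.0936, 0.0853 and 0.0848 without NA replicate 2, RSC replicate 1, RSC replicate 2 and RSC replicate 3 in turn. Cacng3, a subunit of the TARP family that also traffics AMPA receptors, was at 154, 158 and 163 CPM in RSC against 50.9, 34.6 and 42.03 CPM in NA (log2 fold change −1.896, SE 0.304, edgeR adjusted p = 0.00133), 3.73-fold. Among these genes, calls came to 3 without RSC replicate 2 and 4 without NA replicate 2, RSC replicate 1 or RSC replicate 3.

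Potassium channel genes were split. The 48 tested genes of voltage-gated potassium channels included 3 higher in NA and 3 lower (median 0.65). Kcnd3 (Kv4.3), a pore of the A-type current, was at 172, 288 and 215 CPM in NA against 7.73, 4.96 and 30.9 CPM in RSC (log2 fold change 3.95, SE 0.662, edgeR adjusted p = 0.00189), 15.5-fold. Its relative Kcnd2 (Kv4.2) was at 219, 181 and 235 CPM in NA against 87.9, 108 and 107 CPM in RSC (log2 fold change 1.07, SE 0.259, edgeR adjusted p = 0.021), 2.096-fold, and the adjusted p was 0.0549, 0.059, 0.0883, 0.0647 and 0.0611 without NA replicate 1, NA replicate 3, RSC replicate 1, RSC replicate 2 and RSC replicate 3 in turn. Of this pair, only the Kcnd3 call held without each single library. On the authors' FPKM scale the mean level of Kcnd3 was 32.6 in NA and 2.44 in RSC, and that of Kcnd2 was 40.1 and 19.02. Kcnab3, a beta subunit of Kv1 channels, was at 204, 237 and 247 CPM in RSC against 32.1, 6.002 and 23.5 CPM in NA (log2 fold change −3.47, SE 0.567, edgeR adjusted p = 0.00157), 11.2-fold. Kcna5 (Kv1.5) was at 11.6, 11.1 and 4.69 CPM in RSC with 3 fragments in all of NA (log2 fold change −6.96, SE 1.61, edgeR adjusted p = 0.0194), and the adjusted p was 0.0548, 0.0627 and 0.0609 without NA replicate 3, RSC replicate 1 and RSC replicate 2 in turn. Calls numbered 2 without NA replicate 3 or RSC replicate 2 and 3 without RSC replicate 1. Of 12 inward rectifier and two-pore channel genes, only Kcnj9 (GIRK3) was called, at 151, 90.99 and 99.5 CPM in RSC against 55.4, 43.5 and 38.02 CPM in NA (log2 fold change −1.32, SE 0.317, edgeR adjusted p = 0.0204), and the adjusted p was 0.0636 and 0.14 without NA replicate 3 and RSC replicate 1 in turn.

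Of 19 sodium and HCN channel genes, 2 were higher in NA and 2 lower (median −0.13). Scn4b, a sodium channel beta subunit linked to fast repeated firing, was at 168, 144 and 68.3 CPM in RSC against 7.39, 6.22 and 17.6 CPM in NA (log2 fold change −3.599, SE 0.548, edgeR adjusted p = 0.000912), 12.2-fold. A pair of intracellular FGF-like partners of sodium channels went opposite ways. Fgf13 was at 133, 92.8 and 137 CPM in NA against 28.4, 38.8 and 32.4 CPM in RSC (log2 fold change 1.86, SE 0.315, edgeR adjusted p = 0.00195) and Fgf11 at 430.3, 643 and 414 CPM in RSC against 87.7, 185 and 179.6 CPM in NA (log2 fold change −1.72, SE 0.377, edgeR adjusted p = 0.0114). For Fgf11 the adjusted p was 0.0604 without RSC replicate 2. The pore Scn2a differed 1.57-fold, at 972, 956 and 1023 CPM in NA against 566, 621 and 687 CPM in RSC (log2 fold change 0.65, SE 0.152, edgeR adjusted p = 0.0164), and the adjusted p was 0.0723 and 0.0726 without RSC replicate 1 and RSC replicate 2 in turn. With 1 library left out, calls came to 2 without RSC replicate 2.

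Calcium-binding proteins and kinases held 7 higher and 2 lower genes among 38 tested (median 0.19). Calb1, the buffer calbindin, was at 77.7, 105 and 137 CPM in NA against 0, 0 and 2.66 CPM in RSC (log2 fold change 6.85, SE 1.39, edgeR adjusted p = 0.00729), 120.3-fold, with all its RSC signal in replicate 3. Hpcal4, a neuronal calcium sensor, was at 714, 769.97 and 732 CPM in NA against 198, 127 and 149.8 CPM in RSC (log2 fold change 2.22, SE 0.227, edgeR adjusted p = 5.68e-05), 4.67-fold. For Hpcal4 the NA libraries were close together and all far above the RSC libraries. The kinase subunits differed in direction. Camk2a was at 1858, 2393 and 1518 CPM in NA against 1144, 1046 and 1019.6 CPM in RSC (log2 fold change 0.85, SE 0.166, edgeR adjusted p = 0.00584) and Camk2g at 389.8, 342 and 362 CPM in RSC against 82.8, 116 and 59.6 CPM in NA (log2 fold change −2.08, SE 0.321, edgeR adjusted p = 0.000953). The calcium sensor Vsnl1, among the most abundant genes, was at 5993, 5868 and 4804 CPM in RSC against 3859.9, 3878 and 2488 CPM in NA (log2 fold change −0.705, SE 0.151, edgeR adjusted p = 0.0101), and the adjusted p was 0.0723 and 0.0508 without RSC replicate 1 and RSC replicate 2 in turn. The 4 further genes higher in NA had log2 fold changes of 0.59 to 7.05. The count of calls was 4 without RSC replicate 2 and 5 without RSC replicate 1.

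Genes of transmitter release included relatives called in opposite directions. Of 46 tested, 10 were higher in NA and 4 lower (median 0.26). Cplx2, a complexin that clamps and promotes vesicle fusion, was at 726, 561 and 697 CPM in NA against 50.01, 98.5 and 88.2 CPM in RSC (log2 fold change 3.07, SE 0.387, edgeR adjusted p = 0.000352), 8.38-fold. Its relative Cplx1, named after its values were seen, was lower in NA, at 795, 777 and 752 CPM in RSC against 342, 615 and 311 CPM in NA (log2 fold change −0.87, SE 0.224, edgeR adjusted p = 0.0284). On the FPKM scale of the authors, Cplx2 was at 131 in NA and 15.6 in RSC, and Cplx1 at 189 and 344. For Cplx1 the adjusted p was 0.105, 0.0888, 0.11, 0.0839 and 0.0682 without NA replicate 1, NA replicate 3, RSC replicate 1, RSC replicate 2 and RSC replicate 3 in turn. The vesicle proteins Syp, at 1796, 1784 and 1085 CPM in NA against 701, 554 and 419 CPM in RSC (log2 fold change 1.48, SE 0.208, edgeR adjusted p = 0.00056), and Vamp2, at 1081, 1248 and 899 CPM in NA against 537, 445 and 426 CPM in RSC (log2 fold change 1.197, SE 0.179, edgeR adjusted p = 0.000818), were also higher in NA. Beside Syt2 above, the 3 further lower genes had log2 fold changes of −3.91 to −0.66. In smaller sets of libraries, calls numbered 7 without RSC replicate 2 or RSC replicate 3 and 8 without RSC replicate 1.

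**Figure D3:**
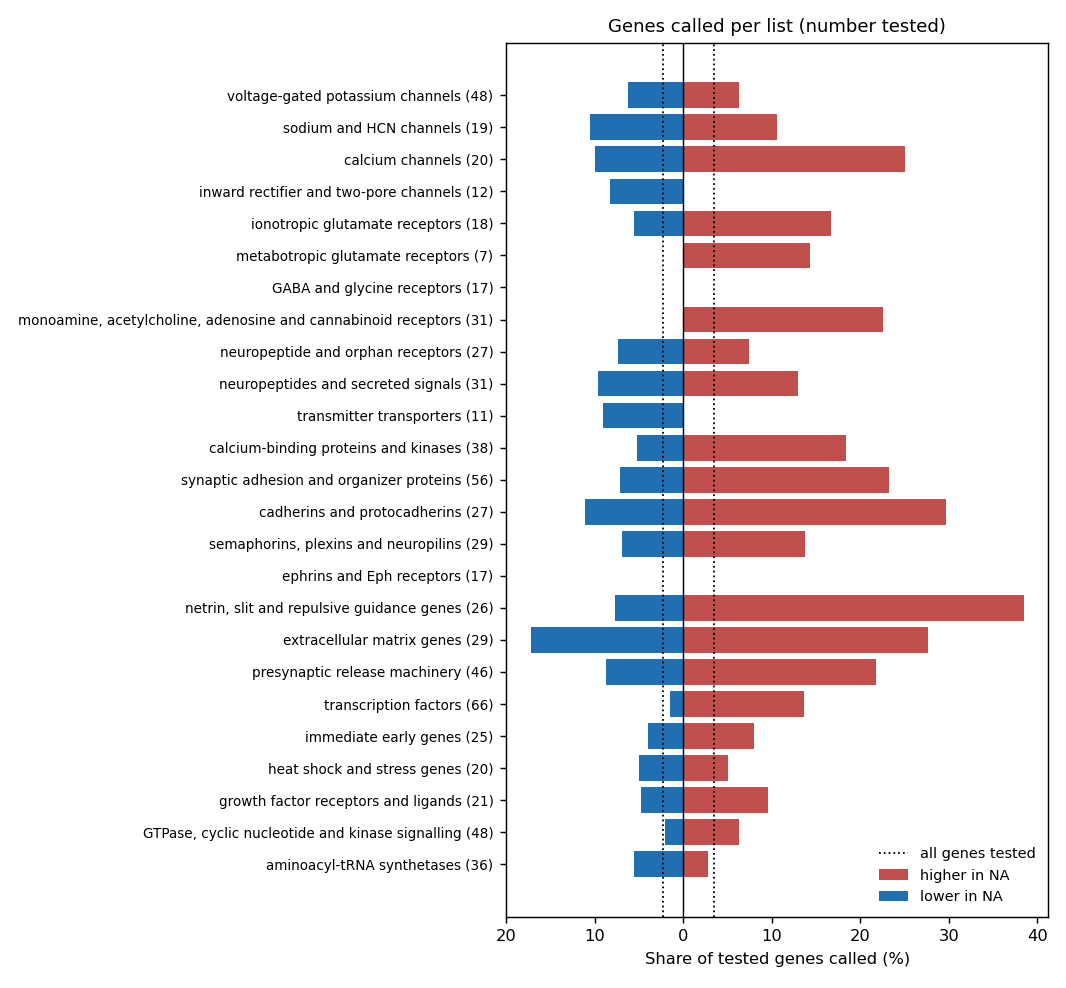
Share of the tested genes of each list that was called higher (red, to the right) or lower in NA (blue, to the left), with the number tested in brackets. Dotted lines mark 3.47% and 2.36%, the shares over all 13916 genes tested; lists were written with earlier results of these data known, and no list was tested.

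Adhesion molecules match axons to partners. Of 56 synaptic adhesion and organizer genes, 13 were higher in NA and 4 lower (median 0.34). Elfn1, a postsynaptic protein that recruits glutamate receptors of the other cell, was at 513, 408 and 407 CPM in RSC against 56.3, 38.9 and 47.04 CPM in NA (log2 fold change −3.22, SE 0.4203, edgeR adjusted p = 0.000374), 9.34-fold. Ntng2, a netrin-G on axons, was at 43.5, 64.2 and 31.5 CPM in NA against 1.4998, 0.496 and 4.11 CPM in RSC (log2 fold change 4.499, SE 0.769, edgeR adjusted p = 0.00212), 22.8-fold. Cadm1 was at 236, 264 and 261 CPM in NA against 82.8, 67.3 and 64.9 CPM in RSC (log2 fold change 1.82, SE 0.214, edgeR adjusted p = 0.000227), and the latrophilin Adgrl1 at 950.3, 794 and 707 CPM in NA against 381, 342 and 352 CPM in RSC (log2 fold change 1.19, SE 0.164, edgeR adjusted p = 0.000493). The groups lay well apart for these 4 genes. The contactin Cntn1, an adhesion protein of axons, was at 1369, 1341 and 1262 CPM in NA against 529.6, 728 and 604 CPM in RSC (log2 fold change 1.09, SE 0.158, edgeR adjusted p = 0.000714). Among these genes, calls came to 11 without RSC replicate 2 or RSC replicate 3.

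Of 27 cadherins and protocadherins, 8 were higher in NA and 3 lower (median 0.59). Pcdh20, a protocadherin, was at 106, 187 and 125 CPM in NA against 0.519, 0.276 and 0.531 CPM in RSC (log2 fold change 8.27, SE 1.07, edgeR adjusted p = 0.000374), 315-fold. Cdh7 was at 139, 62.8 and 104 CPM in RSC against 10.4, 10.8 and 9.595 CPM in NA (log2 fold change −3.31, SE 0.546, edgeR adjusted p = 0.0017), 9.93-fold. Together with Cdh4, described above, cadherin genes stood on both sides. Cdh11 was at 175, 199 and 185 CPM in NA against 33.5, 60.3 and 59.9 CPM in RSC (log2 fold change 1.86, SE 0.305, edgeR adjusted p = 0.00161). Calls numbered 6 without RSC replicate 2 or RSC replicate 3 and 7 without NA replicate 1, NA replicate 3 or RSC replicate 1.

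Axon guidance genes followed. Of 26 netrin, slit and repulsive guidance genes, 10 were higher in NA and 2 lower (median 0.33). Unc5c, a netrin receptor that mediates repulsion, was at 407, 385 and 441 CPM in RSC against 87.3, 114 and 84.1 CPM in NA (log2 fold change −2.11, SE 0.333, edgeR adjusted p = 0.00118), 4.31-fold. Dscam, an adhesion receptor that can also bind netrin, was at 254, 284 and 316 CPM in RSC against 62.8, 94.2 and 92.04 CPM in NA (log2 fold change −1.78, SE 0.257, edgeR adjusted p = 0.000714), 3.43-fold. Higher in NA were Nell2, a secreted ligand of ROBO3, at 543, 393 and 381 CPM in NA against 159, 189 and 113 CPM in RSC (log2 fold change 1.52, SE 0.209, edgeR adjusted p = 0.000493), and Ncam1, at 730.2, 829 and 687 CPM in NA against 332, 297 and 273 CPM in RSC (log2 fold change 1.32, SE 0.171, edgeR adjusted p = 0.000374). The 8 further genes higher in NA had log2 fold changes of 0.51 to 4.99. With 1 library left out, calls came to 7 without RSC replicate 1 or RSC replicate 2.

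Of 29 semaphorins, plexins and neuropilins, 4 were higher in NA and 2 lower (median 0.82). The semaphorin receptors Plxna1, at 402, 732 and 419.8 CPM in NA against 157, 131 and 199 CPM in RSC (log2 fold change 1.68, SE 0.238, edgeR adjusted p = 0.000609), and Plxna2, at 512, 504 and 508 CPM in NA against 243, 198 and 242 CPM in RSC (log2 fold change 1.16, SE 0.2104, edgeR adjusted p = 0.0032), were higher. Their relative Plxna4 was at 595, 539 and 669 CPM in RSC against 307, 310.1 and 319.9 CPM in NA (log2 fold change −0.94, SE 0.202, edgeR adjusted p = 0.00978), and the adjusted p was 0.0505 without RSC replicate 3. Plxnc1 was at 87.9, 148 and 108 CPM in NA against 21.5, 12.8 and 32.03 CPM in RSC (log2 fold change 2.37, SE 0.481, edgeR adjusted p = 0.00727). Among 17 ephrins and Eph receptors edgeR called 0, with 4 at an unadjusted p under 0.05, and DESeq2 called 4. Without RSC replicate 3, edgeR called 1.

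Matrix genes were called in both directions, with 8 of 29 higher in NA and 5 lower (median 0.67). Beside Fn1 and Thbs1, Sparcl1, a matricellular protein, was at 1707, 2019.9 and 1706 CPM in RSC against 701, 346 and 616 CPM in NA (log2 fold change −1.71, SE 0.2304, edgeR adjusted p = 0.000438). Timp2, an inhibitor of metalloproteinases, was at 355, 482 and 409.7 CPM in NA against 92.1, 127 and 72.7 CPM in RSC (log2 fold change 2.09, SE 0.368, edgeR adjusted p = 0.00254). The testican Spock1, which is also a marker in the CA3 and CA2 list, was at 106, 235 and 158 CPM in NA against 29.4, 8.71 and 31.4 CPM in RSC (log2 fold change 2.84, SE 0.569, edgeR adjusted p = 0.00661). The count of calls was 7 without RSC replicate 1 or RSC replicate 2.

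Transcription factors, which set cell identity, were called mostly on the NA side, with 9 of 66 higher and 1 lower (median 0.298). These calls were 15.2% of the members tested, against 5.83% of all genes tested. Tbr1, a T-box factor of glutamatergic neurons, was at 206, 494 and 148 CPM in NA against 36.7, 68.3 and 52.6 CPM in RSC (log2 fold change 2.43, SE 0.375, edgeR adjusted p = 0.00096), 5.38-fold. Bhlhe22 was at 50.7, 191 and 55.96 CPM in NA against 14.02, 10.8 and 10.3 CPM in RSC (log2 fold change 3.09, SE 0.553, edgeR adjusted p = 0.00291), and the LIM-domain cofactor Lmo4 at 225, 224 and 187 CPM in NA against 60.4, 59.998 and 72.7 CPM in RSC (log2 fold change 1.72, SE 0.251, edgeR adjusted p = 0.000735). NA replicate 2 was highest for Tbr1 and Bhlhe22, while Lmo4 was even. Neurod6 was at 324, 386 and 379 CPM in NA against 59.9, 124 and 104 CPM in RSC (log2 fold change 1.92, SE 0.349, edgeR adjusted p = 0.0032). The only lower factor was Nr4a2, an orphan nuclear receptor, at 809.96, 951 and 758 CPM in RSC against 416, 305 and 486 CPM in NA (log2 fold change −1.06, SE 0.224, edgeR adjusted p = 0.00908), and the adjusted p was 0.0508 without RSC replicate 2. In smaller sets of libraries, calls numbered 6 without RSC replicate 2.

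Of 48 GTPase, cyclic nucleotide and kinase signalling genes, 3 were higher in NA and Trib2 was lower (median 0.31). The called share of this list was 8.33%, near the 5.83% of all genes tested. Prkca, an isoform of protein kinase C, was at 794, 777 and 843 CPM in NA against 176, 211 and 346 CPM in RSC (log2 fold change 1.72, SE 0.253, edgeR adjusted p = 0.000786). Its relative Prkce was at 891, 1383 and 1028 CPM in NA against 751, 600.03 and 674 CPM in RSC (log2 fold change 0.705, SE 0.166, edgeR adjusted p = 0.0177), and the adjusted p was 0.068, 0.101 and 0.0659 without NA replicate 2, RSC replicate 2 and RSC replicate 3 in turn.

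Activity and stress genes were called in both directions, 12% and 10% of the members tested against 5.83% of all genes tested. Of 25 immediate early genes, Egr1 and Arc were higher in NA and Ier5 was lower (median 0.604). Egr1 was at 285, 427 and 304 CPM in NA against 167, 184 and 206 CPM in RSC (log2 fold change 0.87, SE 0.234, edgeR adjusted p = 0.0367), and the adjusted p was 0.125, 0.131, 0.119 and 0.0743 without NA replicate 2, RSC replicate 1, RSC replicate 2 and RSC replicate 3 in turn. Arc was at 79.5, 159.6 and 70.9 CPM in NA against 50.4, 36.8 and 33.8 CPM in RSC (log2 fold change 1.36, SE 0.373, edgeR adjusted p = 0.0406), and the adjusted p was 0.167, 0.0652, 0.139 and 0.15 without NA replicate 2, RSC replicate 1, RSC replicate 2 and RSC replicate 3 in turn. Both had their highest value in NA replicate 2. Ier5 was at 226, 158 and 211 CPM in RSC against 85.8, 114 and 98.8 CPM in NA (log2 fold change −0.99, SE 0.232, edgeR adjusted p = 0.0172), and the adjusted p was 0.07, 0.11 and 0.0741 without NA replicate 1, RSC replicate 1 and RSC replicate 3 in turn. Among these genes, calls came to 0 without RSC replicate 1 or RSC replicate 3 and 1 without NA replicate 2 or RSC replicate 2. Of 20 heat shock and stress genes (median −0.15), Dnajb5 was higher in NA (1.05, edgeR adjusted p = 0.0331; the adjusted p was 0.0572, 0.0856, 0.11 and 0.156 without NA replicate 1, NA replicate 2, RSC replicate 1 and RSC replicate 2 in turn) and Hspe1 lower (−1.57, edgeR adjusted p = 0.0204; the adjusted p was 0.0826 and 0.0546 without RSC replicate 2 and RSC replicate 3 in turn). Calls numbered 0 without RSC replicate 2 and 1 without NA replicate 1, RSC replicate 1 or RSC replicate 3.

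The gene with the smallest adjusted p was Lars2, the mitochondrial leucyl-tRNA synthetase, at 13236, 17269 and 11558 CPM in NA against 1419, 884 and 935 CPM in RSC (log2 fold change 3.699, SE 0.321, edgeR adjusted p = 3.26e-05), 12.99-fold. In the single cells described below, its median was 62.5 CPM among wells with a count, far below its level in each of these libraries. The reason was not tested, and how shared reads were handled is not given in the sources used here. Lars2 stood alone in its family. Of 36 aminoacyl-tRNA synthetase genes it was the only one called higher, the list's median was −0.36, and Farsb (−1.25, edgeR adjusted p = 0.0148; the adjusted p was 0.0706 and 0.0588 without RSC replicate 1 and RSC replicate 2 in turn) and Nars (−0.95, edgeR adjusted p = 0.0435; the adjusted p was 0.115, 0.131, 0.112, 0.168 and 0.0686 without NA replicate 1, NA replicate 2, RSC replicate 1, RSC replicate 2 and RSC replicate 3 in turn) were lower. With 1 library left out, calls came to 1 without RSC replicate 1 or RSC replicate 2. Cdr1 was at 3495, 3576 and 2472 CPM in NA against 559, 647 and 663 CPM in RSC (log2 fold change 2.35, SE 0.233, edgeR adjusted p = 5.68e-05), 5.11-fold. An antisense transcript overlaps Cdr1, and since no source used here states counting by strand, reads from both cannot be told apart.

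Other abundant genes differed by less. Higher in NA were the glycolytic enzyme gene Gapdh (1.05, edgeR adjusted p = 0.00241), the adaptor Ywhaz (0.61, edgeR adjusted p = 0.0175; the adjusted p was 0.0701, 0.0684 and 0.0743 without NA replicate 2, RSC replicate 1 and RSC replicate 2 in turn) and the reticulon Rtn1 (0.55, edgeR adjusted p = 0.0101; the adjusted p was 0.0531 without RSC replicate 2). Higher in RSC were the kinase gene Pak1 (−0.88, edgeR adjusted p = 0.0015), the calcium pump Atp2a2 (−0.63, edgeR adjusted p = 0.0112; the adjusted p was 0.0652 without RSC replicate 1) and the secreted protein Dkk3 (−0.63, edgeR adjusted p = 0.0199; the adjusted p was 0.0619, 0.0576, 0.102, 0.0538 and 0.067 without NA replicate 2, NA replicate 3, RSC replicate 1, RSC replicate 2 and RSC replicate 3 in turn). Psd3, an exchange factor for ARF GTPases, was also higher in RSC (−0.57, edgeR adjusted p = 0.0443), and the adjusted p was 0.117, 0.0582, 0.0864, 0.125, 0.101 and 0.159 without NA replicate 1, NA replicate 2, NA replicate 3, RSC replicate 1, RSC replicate 2 and RSC replicate 3 in turn. All the values in brackets are log2 fold changes of NA against RSC.

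The picked cells carried the transcripts of pyramidal neurons. Of 12 excitatory pyramidal markers tested, Camk2a, Neurod6 and Tbr1 were higher in NA and Slc17a6 lower, and the list summed to 4283 to 6676 CPM in NA libraries and 3712 to 4347 CPM in RSC libraries. Some defining markers of other cells were at or near 0 and others were not. The microglial gene Cx3cr1 and the endothelial gene Cldn5 had no fragment in any of the 6 libraries, the oligodendrocyte gene Mog reached at most 0.107 CPM and the astrocyte gene Gfap 0.0621 CPM. The 9 listed oligodendrocyte markers summed to 82.01, 73.3 and 47.8 CPM in NA and 48.9, 54.3 and 42.7 CPM in RSC, mostly Mbp (71.9, 62.8 and 40.9 CPM in NA against 48.7, 48.3 and 35.1 CPM in RSC). The 10 microglia markers summed to 38.3, 4.82 and 10.9 CPM in NA and 5.88, 24.04 and 8.07 CPM in RSC, and 4 of them were at 0 in all 6 libraries. The 10 endothelial or mural markers summed to 39.4, 25.9 and 58.8 CPM in NA and 8.65, 14.1 and 13.9 CPM in RSC, mostly Rgs5 (36.6, 23.8 and 51.002 CPM in NA against 5.65, 10.6 and 6.04 CPM in RSC), and again 4 were at 0 throughout. The endothelial or mural sum was higher in each NA library than in each RSC library, and its part in the results was not tested. Of 4 oligodendrocyte, 2 microglia and 2 endothelial or mural markers tested, edgeR called 0, with 0, 0 and 1 at an unadjusted p under 0.05, and DESeq2 called 0, 0 and 1. No oligodendrocyte precursor marker passed the filter on low counts. Of 6 astrocyte markers, only Sox9 was called, as described for NA replicate 2. The astrocyte list summed to 408, 660.2 and 327 CPM in NA and 405, 253 and 146 CPM in RSC, mostly Slc1a2 (403, 585 and 293 CPM in NA against 387, 246 and 130.4 CPM in RSC), which did not pass (0.75, edgeR adjusted p = 0.269).

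Interneuron transcripts varied within the RSC group. The 15 markers summed to 35.5, 36.2 and 19.9 CPM in NA and 5.25, 92.5 and 323 CPM in RSC. Gad2, which makes GABA, was at 0, 43.3 and 177 CPM in RSC against 5.96, 7.395 and 0.156 CPM in NA, and Gad1 at 0, 7.22 and 37.4 CPM in RSC against 0.8698, 1.93 and 0 CPM in NA. RSC replicate 3 was thus highest, replicate 1 had none of either, and Vip was at 0 in all 6 libraries. None of the 9 markers tested was called by edgeR or DESeq2, and 2 had an unadjusted p under 0.05. With both RSC replicates 2 and 3 left out, 109 genes were called, 59 higher in NA and 50 lower, of which 99 were among the 811. That fit leaves a lone RSC library, assumed to vary like the other groups. Of the 115 genes chosen by the naming rule, 45 stayed called in it, 22 higher and 23 lower, among them Kit (0.0253), Calb1 (0.0338), Lars2 (0.0032), Nts (0.000795), Syt2 (0.000795), Fn1 (0.0053) and Trib2 (0.00283; edgeR adjusted p). Calls lost in it include Dlk1 (0.116), Cdh4 (0.0795), Nnat (0.107) and Slc17a6 (0.0657). The part of interneuron RNA in these results was not tested beyond this.

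**Figure D4:**
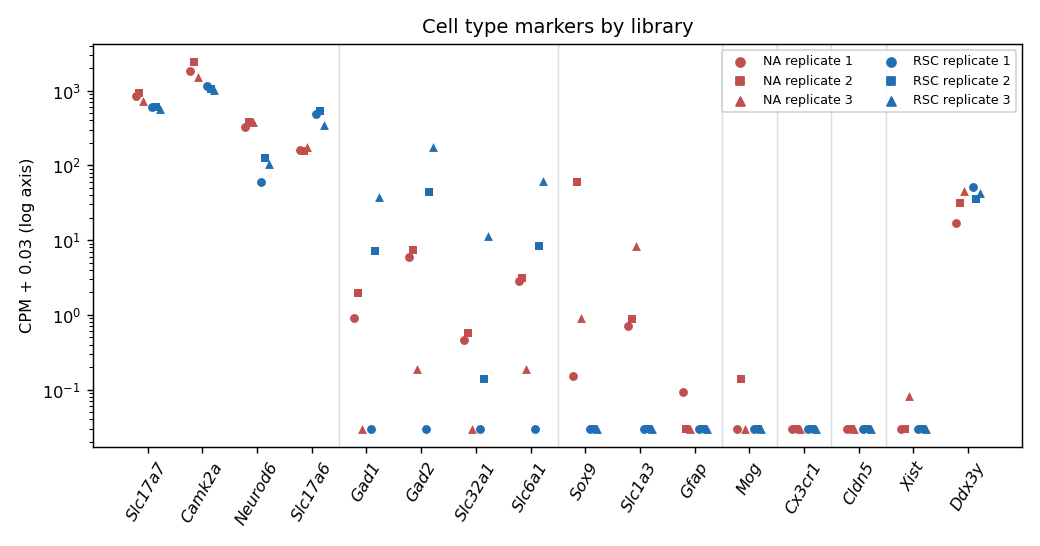
CPM + 0.03 on a log axis for 16 marker genes in the 3 NA (red) and 3 RSC libraries (blue), from pyramidal markers at the left through interneuron, astrocyte, oligodendrocyte, microglial and endothelial markers to sex-linked transcripts at the right. The pyramidal markers shown (Slc17a7, Camk2a, Neurod6 and Slc17a6, not the whole list) lie above 50 CPM in all 6 libraries. The interneuron markers spread widely among RSC libraries, and Cx3cr1 and Cldn5 are at 0.

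Genes known as markers of neighbouring hippocampal regions also differed. Of 11 CA1 pyramidal markers tested, 3 were higher in NA and 0 lower (median 0.74), and the 12 listed summed to 1815, 1857 and 1785 CPM in NA and 719, 769 and 804 CPM in RSC. Ccn3, a secreted matricellular protein, made up much of that sum at 946, 943 and 945 CPM in NA against 193, 184 and 224 CPM in RSC (log2 fold change 2.24, SE 0.269, edgeR adjusted p = 0.000274). Man1a was at 328, 259.8 and 341 CPM in NA against 93.5, 100.4 and 119 CPM in RSC (log2 fold change 1.57, SE 0.291, edgeR adjusted p = 0.00365) and the proteoglycan Dcn at 59.6, 93.8 and 37.6 CPM in NA against 0, 0 and 9.61 CPM in RSC (log2 fold change 4.29, SE 1.2001, edgeR adjusted p = 0.044), and for Dcn the adjusted p was 0.062, 0.0743, 0.0502, 0.0991 and 0.0947 without NA replicate 1, NA replicate 2, NA replicate 3, RSC replicate 1 and RSC replicate 2 in turn. Of 12 CA3 and CA2 markers, Nnat and Spock1 were higher in NA. Nnat, a small membrane protein of developing neurons, was at 1178, 724 and 329 CPM in NA against 4.44, 0.496 and 3.19 CPM in RSC (log2 fold change 8.097, SE 1.34, edgeR adjusted p = 0.00173), 274-fold. It lies within another gene, and no source used here states counting by strand. The median of the list was −0.16, and 10 members did not pass. The 13 listed CA3 and CA2 markers summed to 1432, 1052 and 687 CPM in NA and 162, 135 and 194 CPM in RSC. Nnat was a large part of the NA sums. 

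Among 5 markers of dentate granule cells, Calb1 was higher in NA, and C1ql3, a secreted synaptic organizer, was lower, at 193, 194 and 136 CPM in RSC against 12.98, 25.3 and 38.6 CPM in NA (log2 fold change −2.76, SE 0.424, edgeR adjusted p = 0.000953). The defining dentate factor Prox1 was at 0.8698, 1.29 and 0 CPM in NA against 0, 0 and 0 CPM in RSC. The 9 listed dentate markers summed to 123, 174 and 230 CPM in NA and 215, 227 and 168 CPM in RSC. Of 11 presubiculum, entorhinal and deep cortical markers, Crym and Nr4a2 were lower in NA and 0 were higher (median −0.23). The 15 listed summed to 3577, 3132 and 3417 CPM in NA and 4776, 4805 and 4615 CPM in RSC. Crym, which binds thyroid hormone, was at 212, 114 and 148 CPM in RSC against 40.9, 28.6 and 56.8 CPM in NA (log2 fold change −1.905, SE 0.328, edgeR adjusted p = 0.00223). The count of calls was 1 without RSC replicate 2. A list of 18 genes with reported variation inside the subiculum had 5 higher in NA and 5 lower, which earlier work may have drawn from such cells, so that this is not independent evidence of direction. None of 4 sex-linked transcripts was called by edgeR or DESeq2, 0 had an unadjusted p under 0.05, and Xist was at no more than 0.0521 CPM in any of the 6 libraries.

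Whether the difference between NA and RSC departs from that between PFC and VHN was tested with the 6 other libraries. The difference of differences was called for 1 gene (0.00719%), while 1169 of the 13916 genes tested had an unadjusted p under 0.05. With no true difference, a share of about 0.05 of all genes would lie under that threshold. Adgra1, an adhesion G protein-coupled receptor, was at 495, 383 and 388 CPM in NA against 529, 503 and 538 CPM in RSC (−0.31, edgeR adjusted p = 0.357), against 169.96, 105 and 121 CPM in PFC and 596, 593 and 604 CPM in VHN. All 3 PFC libraries lay below the other 9, with a difference of differences of 1.87 (SE 0.263, edgeR adjusted p = 0.0286, log2 scale). The call was lost in 4 of 6 fits with 1 NA or RSC library left out, where the adjusted p of Adgra1 was 0.0602 without NA replicate 1 and 0.145, 0.0963 and 0.133 without RSC replicates 1, 2 and 3. It was 0.0791 without normalization. Of the fits with 1 NA or RSC library left out, 2 called other genes, 1 without RSC replicate 2 and 2 beside Adgra1 without NA replicate 3. In the main fit a difference between the contrasts was not shown for other genes. Without the filter on low counts, 192 genes were called for it, and 175 of these had been tested in the main fit.

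Single cells allowed a look at whether genes of one side occur in the same cells. Of 384 wells on 4 plates, 348 held 1000 or more detected genes, and their median total was 112401 counts. Cells carry no target label and form 1 pooled sample, so these are descriptions. The genes were the named ones that differed by 3 or more on the log2 scale, reached a mean of 50 CPM on their higher side and were matched in the single-cell table, 12 higher in NA and 10 higher in RSC. Nts was found in 70.4% of wells, Rxfp1 in 47.1%, Syt2 in 34.8% and Trib2 in 20.4%. Nnat was found in 61.5%, Calb1 in 31.3%, Kit in 26.4% and Htr2c in 18.7%. Lars2 and Cplx2 were found in 92.2% and 92.8%, but Dlk1 and Mei4 in only 5.17% and 2.01%.

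Across wells most of the genes fell into 2 blocks. Lars2 departed from its side, and Mei4 had weak correlations with all the others (−0.125 to 0.106). All 45 pairs of RSC-higher genes had a positive Spearman correlation of CPM, with a median of 0.40 and a maximum of 0.74 between Rxfp1 and Syt2. Of 66 pairs of NA-higher genes 53 were positive, with a median of 0.17 and a maximum of 0.67 between Nnat and Calb1. Of 120 pairs with a gene from each side, 110 were negative, with a median of −0.22 and a minimum of −0.60 between Cplx2 and Igfbp4. The 10 positive pairs were those of Lars2 with each RSC-higher gene. The summed CPM of the 12 genes and of the 10 genes correlated at −0.68 across wells, and at −0.65 to −0.63 within each of the 4 plates. Wells share their depth within each pair, and the number of genes detected on either side correlated at 0.28 with the counts per well. Pairs that share a gene are not independent. Correlations of other genes were not computed, so the shares of positive and negative pairs have no background here. Kit and Calb1 were found together in 74 wells (21.3%), and Kit and Nts in 48 (13.8%).

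**Figure D5:**
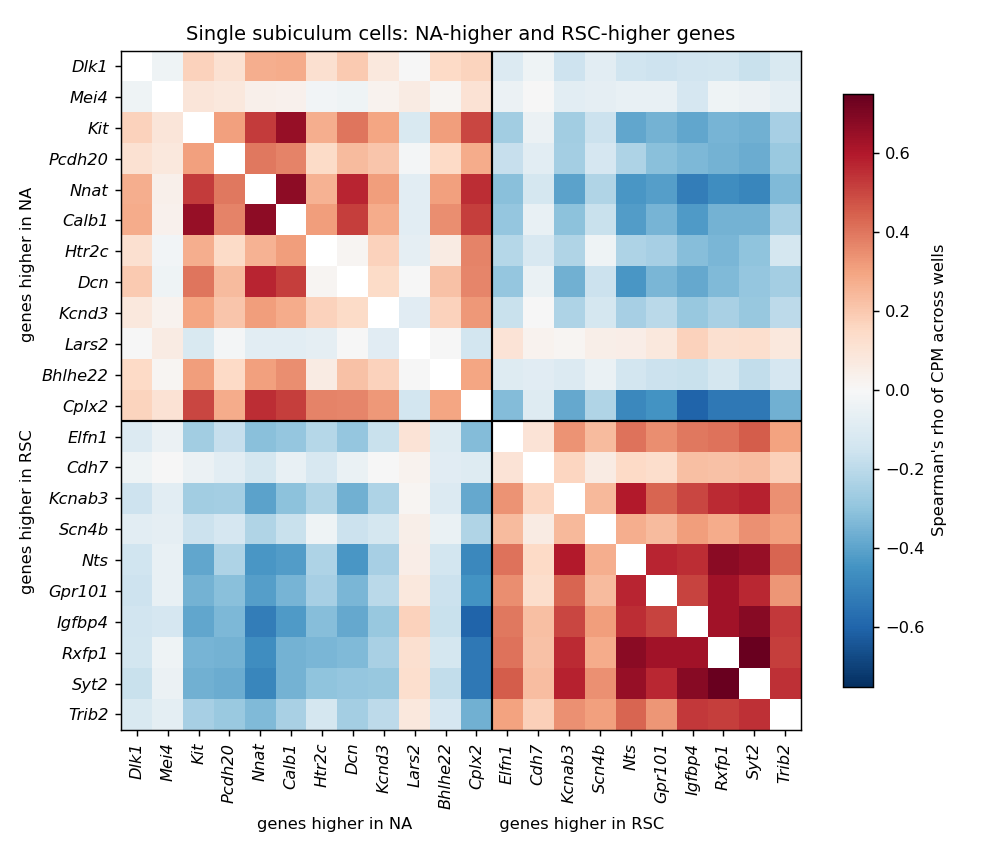
Spearman correlation of CPM across 348 single subiculum cells for each pair of the 12 genes higher in NA and the 10 genes higher in RSC in bulk libraries (red positive, blue negative, diagonal blank; black lines separate the sides). Genes of one side correlate positively within the RSC block and mostly within the NA block, negative values fill the blocks between sides, and the row of Lars2 departs from this.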

How the data were processed

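Bulk values came from the read-group table of Cuffdiff, as seen per the file headers, with mm9 as the genome build per the submitters' processing notes; the aligner, annotation and handling of strand or shared reads are not given in the sources used here. The authors deposited raw fragments, a kind of estimated count per gene and library (expected counts), of which 8.51% of values above 0 were not whole (tolerance 1e-06), so they were rounded. The authors' FPKM values served only to compare genes per length. The table gives each library its population and a replicate index from 0, while the labels number from 1; libraries are named by that index plus 1, and which labelled sample each one is within its population is not known. Symbols matched 32894 of 37607 gene rows (87.5%) by identifier, 92 spike-in rows at 0 were left out, and 178 entries with the status FAIL were kept. Gene coordinates are not given, since no mm9 annotation was used here.

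Genes were filtered with filterByExpr (smallest count 10) and fitted by the quasi-likelihood test of edgeR 4.0.16 in R 4.3.3 on all 12 libraries, with TMM scaling, common biological coefficient of variation 0.736 and 8 residual degrees of freedom. The procedure was tested on simulated data. Folds are ratios of mean CPM. With no fragment on the low side they are bounds against 3 fragments over the group, and with 1 to 3 fragments they are instead ratios of summed fragments over summed effective library sizes, with an exact 95% interval, which covers counting error only. In the main fit each p-value weighs a difference against the spread within populations, estimated over all 12 libraries. Named genes were the 12 largest differences in each direction with a symbol, a mean of 10 CPM or more in the higher group and libraries that did not overlap, up to 4 called genes per list (lowest adjusted p first), the 6 most abundant called genes in each direction, the genes called for the difference from PFC against VHN (up to 6 in each direction) and the cell type markers; a few genes that this rule chose are not reported here. The members and lists were chosen with earlier results of these data known. The alternatives were DESeq2 1.42.0, other scaling, no filter, only 6 libraries, a replicate block and left-out libraries. The single-cell table holds deposited whole-number counts per gene and well, which were scaled to CPM over wells with at least 1000 detected genes; doublets were not called. Motifs were counted in RefSeq promoters of GRCm38.p6 matched by symbol.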

Additional observations from a re-analysis of the deposited data

Results flagged for a closer look

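In the main fit, 1 gene differed between the NA against RSC contrast and the PFC against VHN contrast by the test of that difference. For Adgra1 the difference of differences was 1.87 on the log2 scale (edgeR adjusted p = 0.0286). The call was lost without NA replicate 1 (0.0602), without RSC replicate 1, 2 or 3 (0.145, 0.0963 and 0.133) and without normalization (0.0791). Without a filter on low counts the edgeR adjusted p was 2.75e-07. The gene was at 422 ± 63.3 CPM in NA, 523 ± 18.1 CPM in RSC, 132 ± 33.7 CPM in PFC and 598 ± 5.72 CPM in VHN (SD, n = 3 each). PFC against VHN gave a log2 fold change of −2.18 (edgeR adjusted p = 4.42e-05), against −0.31 for NA against RSC.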

How the results depend on the processing

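No named gene changed direction under any alternative run. Without a filter on low counts, 1353 genes were called, 873 of them higher in NA, and 192 differed between the NA against RSC and PFC against VHN contrasts, 1 of them the gene called in the main analysis. Of the 1353, 36 lay below the filter of the main fit, and of the 192, 175 had been tested in it. Most of the 192 were thus genes that the main fit tested but did not call. DESeq2 called 1671 genes, 997 higher and 674 lower, with 802 shared with the 811. Without normalization the split was 407 higher and 405 lower, and edgeR called the difference between contrasts for 0 genes. With TMM, 1169 of the 13916 genes tested had an unadjusted p under 0.05 for that difference. The 6 NA and RSC libraries alone gave 557 calls, of which 529 were shared. Without PFC replicate 3, an alternative chosen after seeing the data, 3 genes differed between contrasts. With single NA or RSC libraries left out, calls ranged from 387 to 777, those higher in NA from 222 to 485, those lower from 151 to 292, and those that differed between contrasts from 0 to 3. Without RSC replicates 2 and 3 together, these numbers were 109, 59, 50 and 0. The cause of these changes was not tested. A replicate block on the table's replicate index, which may not be the labels' number, gave 725 calls, 669 of them shared. Deviations of same-numbered NA and RSC libraries correlated at −0.0102, −0.0150 and 0.00341, so the numbers give no sign of pairing. Transcripts below about 3 fragments per library, 0.145 to 0.322 CPM after TMM scaling, could not be told from absence at this depth.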
